A study of Homo sapiens with 24 samples.

Results

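The mRNAs of proteasome subunits were followed through an RNA immunoprecipitation sequencing study of 2 chaperone proteins. Members were all genes of the deposited count table whose symbol was PSMA, PSMB, PSMC or PSMD followed by a number. They came to 39 of 28307 genes. Of these, 37 passed the low-count filter of every fit. PSMA8, a testis-restricted alpha subunit, had 0 counts in all 24 libraries, and PSMB11, the thymus-restricted beta subunit, had 7 counts in all. PSMA7, an alpha subunit, had the most, 270750 summed over the libraries.

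The cells were HCT116, a human colorectal carcinoma line in which CRISPR/Cas9 had placed GFP on endogenous RUVBL1 or on RPAP3. RUVBL1 is an AAA+ ATPase and RPAP3 a scaffold of the R2TP co-chaperone complex, of which RUVBL1 is also part. Lysates were bound to GFP-Trap beads, called GFP beads here, or to control agarose beads, called uncoupled beads here. In the RPAP3 line each bead type was used on cells given puromycin (100 µg/mL for 30 min), which releases nascent chains from ribosomes, and on untreated cells. In the RUVBL1 line each bead type was used on cells given puromycin, on cells kept with CB-6644 (0.5 µM for 16 h), an inhibitor of RUVBL1/2 ATPase activity, on cells given both drugs, and on untreated cells. That makes 12 groups of 2 libraries. All cells of a line carried that line's tag. The labels do not say whether a line was 1 clone, whether every allele was tagged, or whether replicates came from separate cultures. The spread behind each p-value is therefore that of these libraries alone and may be technical.

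The proteasome degrades ubiquitin-tagged proteins. Its core is a stack of rings, with outer rings of alpha subunits (PSMA genes) and inner rings of beta subunits (PSMB genes), a few of which carry the protease sites. Immune signals such as interferon induce PSMB8, PSMB9 and PSMB10, which replace constitutive catalytic subunits. The regulatory particle that caps the core has a base with ATPases (PSMC genes) that unfold substrates, and further subunits (most PSMD genes) of the base and of a lid that binds and removes ubiquitin. PSMD5, PSMD9 and PSMD10 are chaperones that help to assemble the base and leave it. The transcription factor NFE2L1 raises proteasome genes together when proteasome activity is short.

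A library held 30844089 to 50394245 counts in the RPAP3 line and 9019665 to 33051512 in the RUVBL1 line. Replicate pairs correlated at 0.94 to 0.993 over genes on the log2 scale, and each pair differed by more than sampling noise. In the RUVBL1 line 3 libraries stood apart on the first principal components: GFP beads CB-6644 replicate 2, GFP beads with both drugs replicate 1, and uncoupled untreated replicate 2. Of 13 markers of colorectal epithelium, 10 had counts in every library, EPCAM, CDH1, KRT8, KRT18 and CDX2 among them, while CEACAM5, CDX1 and VIL1 were at 0 in 16, 20 and 15 of the 24. Markers of blood, stromal and liver cells summed to 6.51 to 42.7 CPM (the usual depth-scaled count of a gene, with a TMM factor set within each line).

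In the RefSeq gene table for GRCh38.p14, 17 of the 39 members overlap another gene, such as PSMA3 with PSMA3-AS1, PSMC2 with PMPCB and SLC26A5, and PSMD1 with HTR2B. The strand setting of the counting is not given in the sources used here, so reads of such pairs could have been merged. The table also lists 45 pseudogenes of 19 members, of which 0 have a row in the counts, so the share of reads from near-identical copies is uncertain.

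A promoter window was at hand in RefSeq for 34 members. For 4 of them the 250 bases before the start in the RefSeq promoter table are shown, because these mRNAs lead differences described below. PSMD1, a scaffold subunit of the base, and PSMC2, a base ATPase, had the largest differences after puromycin on uncoupled beads of the RPAP3 line. PSMB10 and PSMD9 were the members called lower there on both bead types. Capitals mark TGACNNNGC, the core of the element bound by NFE2L1 and its relatives, or GAAANNGAAA, a core of the interferon response element, on either strand. The windows of PSMD1 (chr2:231056617-231056866, plus strand) and PSMC2 (chr7:103347393-103347642, plus strand) hold neither run of letters. The window of PSMB10 (chr16:67936851-67937100, minus strand) holds GAAANNGAAA in 1 place. That of PSMD9 (chr12:121888540-121888789, plus strand) holds TGACNNNGC in 2 places. The last 119 bases of the PSMC2 window lie inside the gene as the RefSeq gene table bounds it.
PSMD1: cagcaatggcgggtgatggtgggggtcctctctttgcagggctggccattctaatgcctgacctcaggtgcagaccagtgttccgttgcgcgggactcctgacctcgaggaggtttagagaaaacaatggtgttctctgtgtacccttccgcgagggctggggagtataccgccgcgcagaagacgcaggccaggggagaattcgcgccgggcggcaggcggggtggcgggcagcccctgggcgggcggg
PSMC2: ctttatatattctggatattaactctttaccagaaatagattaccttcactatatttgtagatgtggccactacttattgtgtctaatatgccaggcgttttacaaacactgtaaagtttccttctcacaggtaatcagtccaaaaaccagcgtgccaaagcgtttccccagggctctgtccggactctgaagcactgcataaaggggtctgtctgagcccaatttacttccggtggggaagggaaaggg
PSMB10: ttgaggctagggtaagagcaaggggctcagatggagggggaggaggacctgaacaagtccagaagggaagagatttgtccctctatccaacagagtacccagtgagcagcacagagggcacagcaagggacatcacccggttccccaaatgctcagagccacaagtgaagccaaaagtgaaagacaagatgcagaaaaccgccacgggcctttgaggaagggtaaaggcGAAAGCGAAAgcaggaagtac
PSMD9: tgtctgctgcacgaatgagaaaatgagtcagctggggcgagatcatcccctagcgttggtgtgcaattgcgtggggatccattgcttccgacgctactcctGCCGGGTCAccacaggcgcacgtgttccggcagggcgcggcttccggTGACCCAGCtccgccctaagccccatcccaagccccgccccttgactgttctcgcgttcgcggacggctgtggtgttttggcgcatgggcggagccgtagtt

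TGACNNNGC was in windows of 8 of the 34 members with a window, and of 13.2% of all genes with one. These members were PSMA4, PSMB3, PSMB9, PSMC5, PSMD3, PSMD12, PSMD5 and PSMD9. GAAANNGAAA was in windows of 3 of the 34 members (PSMA4, PSMB4 and PSMB10) and of 3.71% of all genes with a window. Every annotated start of a gene was searched, on both strands. Of 28 members called higher after puromycin on uncoupled beads of the RPAP3 line, 6 had TGACNNNGC and 2 had GAAANNGAAA. Of 5 called lower there, 2 had TGACNNNGC and 1 had GAAANNGAAA. Members without a window were counted as lacking both, and the 4 windows shown do not represent this split. Such a match describes letters in a window and not a bound site.

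The study asks which mRNAs come down with a chaperone while their proteins are being made. Enrichment means the level on GFP beads over that on uncoupled beads for cells treated alike, on the log2 scale and with 2 libraries on each side. Calls rest on edgeR's quasi-likelihood test over all genes, at an adjusted p under 0.05. A value after ± is the standard error of the fit. In untreated cells 0 of 37 members were called with either chaperone, against 0.933% of all genes with RUVBL1 and 1.54% with RPAP3. At an unadjusted p under 0.05 the count was 1 member with each, against 1767 of 15976 genes with RUVBL1 and 1207 of 15202 with RPAP3. DESeq2 called 0 members with either.

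The median enrichment of the members in untreated cells was -0.25 with RUVBL1, where the median of all genes was -0.04, and -0.14 with RPAP3, where it was -0.01. The smallest p with RUVBL1 belonged to PSMA1, an alpha subunit, at -0.66 ± 0.23 (edgeR adjusted p = 0.23), PSMB1, a beta subunit, at -0.43 ± 0.23 (0.508), and PSMC1, a base ATPase, at -0.42 ± 0.24 (0.531). With RPAP3 it belonged to PSMB3, a beta subunit, at -0.32 ± 0.14 (edgeR adjusted p = 0.514), PSMD8, a lid subunit, at -0.26 ± 0.14 (0.719) and PSMB2, a beta subunit, at -0.23 ± 0.13 (0.755). Known clients of the chaperone complex stood far above the members on the same scale. The mRNA of PRPF8, of the spliceosome, had 6.44 ± 0.45 with RUVBL1 and 5.13 ± 0.41 with RPAP3, and that of POLR2A, of RNA polymerase II, had 4.46 ± 0.51 with RUVBL1 and 5.34 ± 0.20 with RPAP3.

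Precision limits what could have been seen. Among members other than PSMB8, the highest upper end of a 95% interval was 0.83 with RUVBL1 (PSMC5) and 0.45 with RPAP3 (PSMD2), each interval taken on its own. For PSMB8 the upper end was 1.65 with RUVBL1, from 31 and 21 counts on GFP beads and 12 and 24 counts on uncoupled beads. Smaller enrichments could not be told from 0 at this precision.

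**Figure D1:**
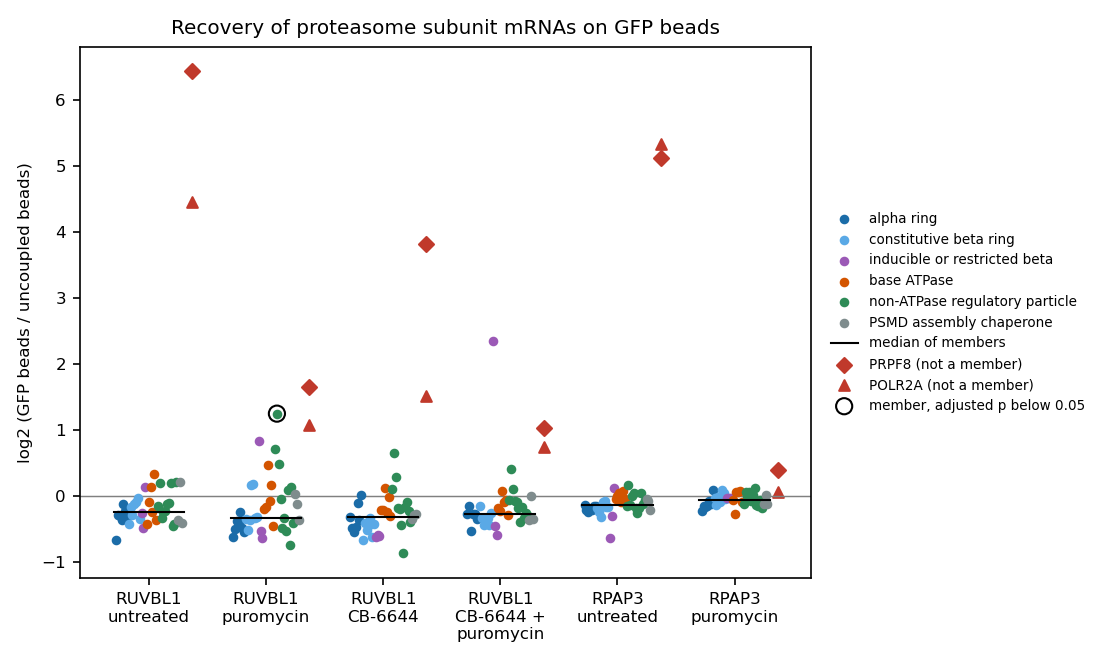
Enrichment on GFP beads over uncoupled beads (log2) for the 37 tested members (dots, coloured by role) in each bait and treatment, with the members' median as a bar and PRPF8 and POLR2A as red marks. The members' medians lie between -0.33 and -0.06, and the ringed dot, PSMD2 with RUVBL1 after puromycin, is the member called.

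After puromycin 1 member was called with RUVBL1 and 0 with RPAP3, against 13.8% and 0.46% of all genes called in either direction. The member was PSMD2, the base subunit on which ubiquitin shuttles and the deubiquitinase USP14 dock (chr3:184299241-184309050 in GRCh38.p14). It had 625 and 997 CPM on RUVBL1 GFP beads after puromycin, against 330.1 and 352 CPM on uncoupled beads after puromycin. Both GFP libraries were above both uncoupled libraries, and GFP replicate 2 was the highest. The difference was 1.25 ± 0.30, a 2.38-fold higher level (edgeR adjusted p = 0.00672). Without GFP beads puromycin replicate 2 it was 0.87 ± 0.34 (adjusted p = 0.199), and without uncoupled puromycin replicate 1 or 2 the adjusted p was 0.116 or 0.0521.

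The other members with RUVBL1 after puromycin missed the threshold. PSMD12, a lid subunit, had -0.74 ± 0.26 (edgeR adjusted p = 0.0623) and PSMA1 had -0.62 ± 0.23 (adjusted p = 0.0724). The members' median was -0.33 and that of all genes 0, with 11 of 37 members above 0. DESeq2 called 3 members higher and 4 lower in this comparison, upper-quartile scaling called 5 lower, and without the 3 libraries that stand apart 4 were higher and 12 lower. Of all 15976 genes DESeq2 called 1954 higher and 1135 lower, so its member counts are near the background. For the other settings the share of all genes is not given here, so those counts are not set against a background. In the main fit cytosolic ribosomal protein mRNAs, another group of abundant housekeeping mRNAs, had a median of -0.74, with 1 of 79 called higher and 11 lower.

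In the same comparison some genes around the proteasome were called. VCP, the segregase that feeds the proteasome, had 1.39 ± 0.27, UBA1, the main ubiquitin-activating enzyme, 1.20 ± 0.28, NPLOC4, a VCP cofactor, 1.11 ± 0.23, NFE2L1 0.87 ± 0.22 and ECPAS, a proteasome adaptor, 0.85 ± 0.20, all higher. SEM1, a small lid subunit, had -0.92 ± 0.24 and PSMG2, a core assembly chaperone, -0.92 ± 0.29, both lower. In all, 5 of 38 genes in 4 lists were higher and 3 lower, where 9.95% of all genes were higher and 3.82% lower, so the higher count is near the background.

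With RPAP3 after puromycin the members' median was -0.06, and DESeq2 called 0 members. At an unadjusted p under 0.05 there were 0 members and 629 of 15202 genes. The smallest p belonged to PSMC2 (-0.28 ± 0.14), PSMA1 (-0.22 ± 0.12) and PSMD14, the lid deubiquitinase (-0.18 ± 0.13), each with an edgeR adjusted p of 0.999. PSMD2 had 319.8 and 326 CPM on RPAP3 GFP beads after puromycin, against 326 and 294 CPM on uncoupled beads after puromycin. These groups overlapped, and the enrichment was 0.06 ± 0.14.

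The difference between the baits was tested in the fit that holds both lines. With puromycin PSMD2 was the 1 member called, with RUVBL1 minus RPAP3 at 1.22 ± 0.35 (edgeR adjusted p = 0.0416), against 4.45% of all genes. The call was lost when any 1 of 7 of the 8 libraries was left out, with 0.87 ± 0.38 (adjusted p = 0.334) without RUVBL1 GFP beads puromycin replicate 2. In the other 6 of these fits the difference was 1.15 to 1.28, close to that in all libraries. The call held without RUVBL1 GFP beads puromycin replicate 1. PSMD1 (0.86 ± 0.33, adjusted p = 0.132) and PSMD3, a lid subunit (0.52 ± 0.25, adjusted p = 0.246), came next. In untreated cells 0 members were called against 0.407% of genes, and DESeq2 called 0 members. At an unadjusted p under 0.05 there were 0 members and 1497 of 16695 genes. The smallest p there belonged to PSMA1 (-0.47 ± 0.28), PSMD12 (-0.45 ± 0.32) and PSMD11, a lid subunit (0.43 ± 0.31).

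With CB-6644, 0 of 37 members were called on RUVBL1 beads, against 2.42% of all genes, and DESeq2 called 0 members. At an unadjusted p under 0.05 there were 7 members and 3531 of 15976 genes, so the members' count is near the background. PSMB1 had -0.66 ± 0.23 (edgeR adjusted p = 0.11), PSMB10 -0.61 ± 0.24 (0.143) and PSMD8 -0.87 ± 0.34 (0.151). PSMD8 had 190.5 and 62.6 CPM on GFP beads with CB-6644, against 235 and 229 CPM on uncoupled beads with CB-6644. Its GFP replicate 2, in a library that stands apart, was the lowest. Without GFP beads CB-6644 replicate 1, which leaves that library alone in its group, PSMD8 had -1.90. Members were called lower in that fit, but its share of all genes is not given here. Without replicate 2 PSMD8 had -0.29.

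With both drugs 0 members were called against 0.557% of genes, and 0 in DESeq2. At an unadjusted p under 0.05 there were 2 members and 1364 of 15976 genes. PSMB10 had -0.59 ± 0.24 (edgeR adjusted p = 0.479) and PSMA3, an alpha subunit, -0.53 ± 0.29 (0.629). PSMB8 had 2.34 ± 1.02 (adjusted p = 0.53) from 22 and 19 counts on GFP beads and 1 and 8 counts on uncoupled beads, so its value rests on few reads.

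Changes in enrichment with a drug were tested as interactions, and 0 members were called in any of 4. The share of all genes called was 0.113% for puromycin with RUVBL1, 0.188% for CB-6644 with RUVBL1, 0.0501% for puromycin under CB-6644 and 0.25% for puromycin with RPAP3. At an unadjusted p under 0.05 there were 4, 2, 1 and 0 members in that order. The genes at that p were 1588, 1878 and 329 of 15976 and 472 of 15202. DESeq2 called 1 member in the first and 0 in the others. For puromycin with RUVBL1, PSMD3 had 0.82 ± 0.29 (edgeR adjusted p = 0.333), PSMD2 1.05 ± 0.41 (0.399) and PSMB10 -0.77 ± 0.33 (0.45). PRPF8 fell by 4.79 in the same test and by 4.74 with RPAP3, and was called in both.

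For CB-6644 with RUVBL1, the change in enrichment was -0.75 ± 0.33 for PSMB10, 0.62 ± 0.29 for PSMD3 and -0.62 ± 0.35 for PSMD14. For puromycin under CB-6644 it was 2.96 ± 1.36 for PSMB8, again on few reads, 0.51 ± 0.33 for PSMB1 and 0.34 ± 0.31 for PSMA2, an alpha subunit. With RPAP3 it was 0.38 ± 0.19 for PSMD8, 0.30 ± 0.19 for PSMB3 and -0.27 ± 0.20 for PSMC2.

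Puromycin was also set against untreated cells on one bead type. On uncoupled beads this compares background RNA, and in bulk libraries fewer cells of a type and less RNA per cell cannot be told apart. In the RPAP3 line 28 of 37 members were higher and 5 lower after puromycin on uncoupled beads, 75.7% and 13.5% of those tested, where 23.5% of all genes were higher and 19.4% lower. The median of the members was 0.71, and that of all genes -0.06. Members made up 0.527 and 0.543% of all counts in the puromycin libraries, against 0.374 and 0.382% in the untreated libraries.

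The largest of these differences were in the regulatory particle. PSMD1 had 161 and 149 CPM on uncoupled beads after puromycin, against 39.3 and 36.6 CPM untreated, a difference of 2.03 ± 0.13 or 4.08-fold (edgeR adjusted p = 2.78e-10). PSMC2 had 126 and 119 CPM after puromycin, against 39.2 and 29.5 CPM untreated, a difference of 1.84 ± 0.15 (adjusted p = 4.76e-09). Neither gene's groups overlapped.

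All 6 base ATPases rose there, from PSMC5 at 0.33 ± 0.13 (edgeR adjusted p = 0.0482) to PSMC2, with PSMC1 at 1.33 ± 0.13 and PSMC4 at 1.28 ± 0.13 between them. Of 11 subunits of the regulatory particle without ATPase activity 10 rose. Among lid subunits PSMD12 had 1.43 ± 0.13, PSMD6 1.26 ± 0.13, PSMD13 1.20 ± 0.14 and PSMD3 1.10 ± 0.13. PSMD2 had 1.35 ± 0.14, and PSMD4, the ubiquitin receptor, 0.82 ± 0.13. PSMD8 was the one that did not pass, at -0.16 ± 0.14 (adjusted p = 0.373). The medians were 1.17 for the ATPases and 1.10 for the other subunits.

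Subunits of the core had a lower median in the same libraries, 0.61 for the alpha ring and 0.36 for constitutive beta subunits. Of 7 tested alpha subunits 6 rose, led by PSMA4, with 274 and 239 CPM after puromycin against 86.0 and 87.5 CPM untreated (1.56 ± 0.14, edgeR adjusted p = 1.47e-08). PSMA7 fell, with 376 and 355 CPM after puromycin against 515 and 534 CPM untreated (-0.52 ± 0.13). Of 7 constitutive beta subunits 4 rose, with PSMB3 at 0.83 ± 0.14 highest, and PSMB6, the caspase-like catalytic subunit, fell (-0.43 ± 0.13). PSMB7, the trypsin-like one, rose (0.43 ± 0.13), and PSMB5, the chymotrypsin-like one, had 0.24 ± 0.12 (adjusted p = 0.125).

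Of the inducible beta subunits 0 rose and 2 of 3 fell. PSMB10 had 13.2 and 12.7 CPM on uncoupled beads after puromycin, against 16.7 and 17.9 CPM untreated (-0.42 ± 0.16, edgeR adjusted p = 0.0342). PSMB9 had 8.80 and 8.14 CPM after puromycin, against 11.5 and 13.5 CPM untreated (-0.56 ± 0.18, adjusted p = 0.0174). The puromycin libraries were below the untreated ones in both genes. PSMB8 had -0.97 ± 0.50 (adjusted p = 0.126), on 43 and 28 counts after puromycin against 61 and 103 untreated.

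The base assembly chaperones split, since PSMD5 (1.09 ± 0.13) and PSMD10 (0.66 ± 0.14) rose and PSMD9 fell. PSMD9 had 59.6 and 52.2 CPM on uncoupled beads after puromycin, against 83.1 and 92.3 CPM untreated (-0.65 ± 0.12, edgeR adjusted p = 0.000217). The 5 members called lower were singled out after their values were seen. Their count was 4 without untreated replicate A, 3 without puromycin replicate A, 2 without either replicate B, and 2 in a fit of all 24 libraries. The count of members called higher was 23 to 25 when 1 of the 4 libraries was left out.

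The GFP beads of the RPAP3 line gave separate libraries of the same treatments, compared after the values had been seen. There 28 of 37 members were higher and 2 lower, where 22.1% of all genes were higher and 17.5% lower. Of the members called higher, 27 were called higher on both bead types, and PSMB10 and PSMD9 were lower on both. The share of all genes called on both bead types was not counted, so this overlap is not set against a background. PSMD1 had 138 and 149 CPM on GFP beads after puromycin, against 34.2 and 34.3 CPM untreated, a difference of 2.06 ± 0.13. PSMA4 had 1.63 ± 0.14, PSMC2 1.56 ± 0.15, PSMC4 1.42 ± 0.13 and PSMC1 1.30 ± 0.13. PSMD13 had 1.26 ± 0.14, PSMD2 1.25 ± 0.14, PSMD3 1.22 ± 0.13, PSMD12 1.22 ± 0.13 and PSMD6 1.15 ± 0.13. PSMA7 (-0.27 ± 0.13, edgeR adjusted p = 0.114), PSMB6 (-0.22 ± 0.13, 0.184) and PSMB9 (-0.28 ± 0.19, 0.242) did not pass the test on these beads. The labels do not say whether both bead types were loaded from the same lysate.

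**Figure D2:**
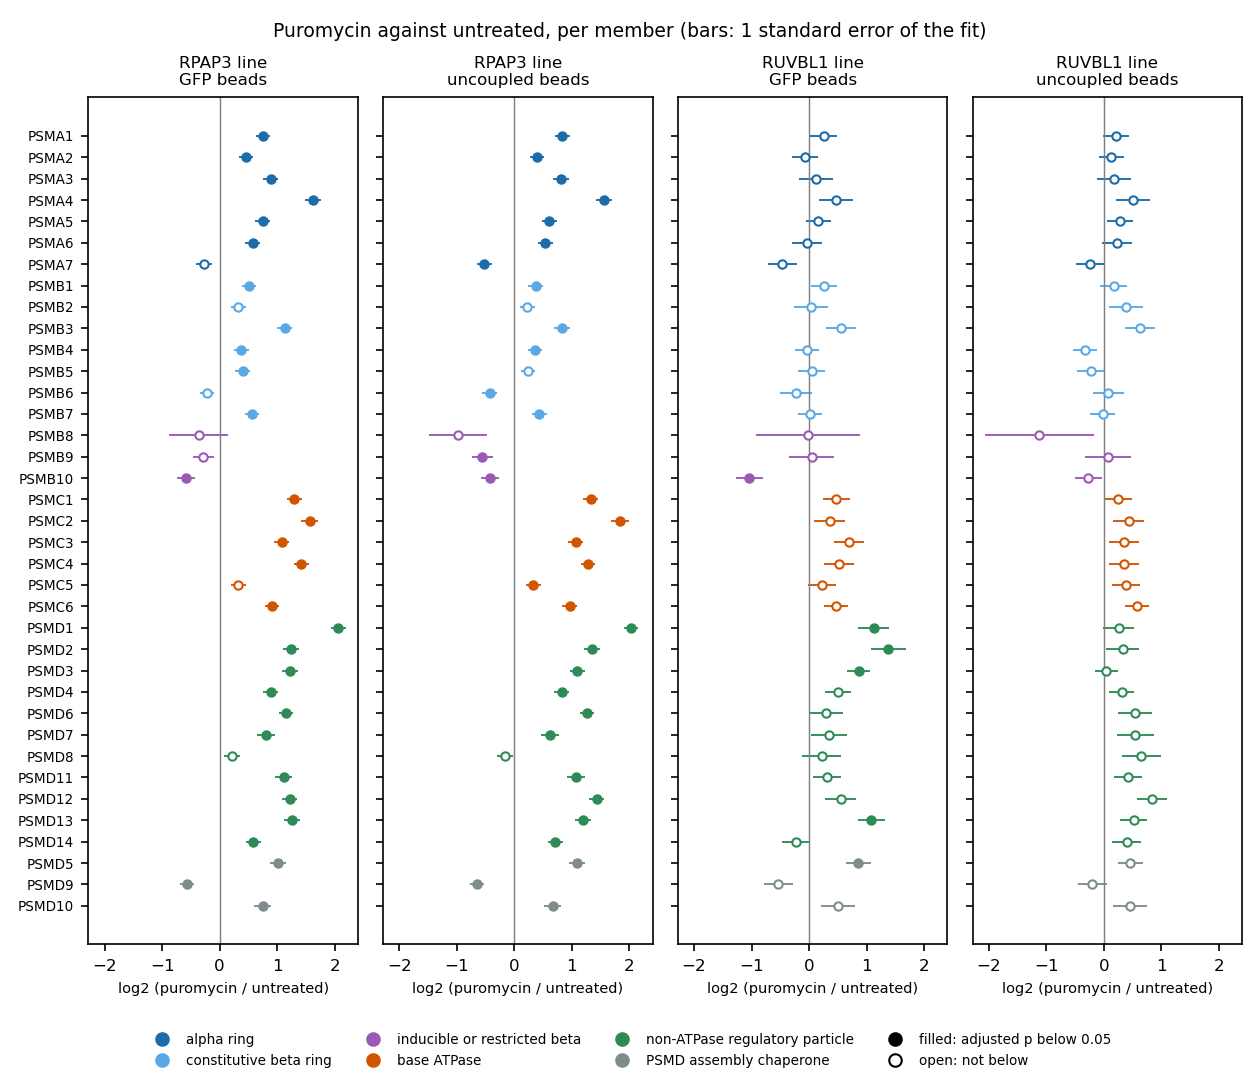
Log2 ratio of puromycin to untreated for each tested member (rows, grouped by role) on GFP and uncoupled beads of the RPAP3 line and of the RUVBL1 line, with 1 standard error of the fit. In the RPAP3 line most points are filled (adjusted p below 0.05) and right of 0, with PSMD1 farthest. In the RUVBL1 line most are open and nearer to 0. The median standard error is 0.25 on either bead type of the RUVBL1 line, against 0.131 and 0.132 in the RPAP3 line. A difference of the same size is thus less readily called in the RUVBL1 line.

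Other genes of the pathway moved in both directions on uncoupled beads of the RPAP3 line, where 23.5% of all genes were higher and 19.4% lower. The lists are small, so their shares are coarse. Of 6 core assembly chaperones and related factors outside the PSMD genes 0 rose and 3 fell, PSMG4 (-0.91 ± 0.15), PSMG3 (-0.76 ± 0.12) and POMP (-0.60 ± 0.13). Of 14 genes for ubiquitin, its E1 enzymes and shuttles 7 rose and 2 fell. Among those that rose, UBA1 had 1.73 ± 0.14, UBQLN2, a shuttle to the proteasome, 1.27 ± 0.15, and VCP 1.26 ± 0.14.

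Of 6 genes for transcription and processing 4 rose there, NFE2L3 (1.35 ± 0.18), SYVN1 (1.32 ± 0.15), NFE2L2 (1.05 ± 0.14) and NFE2L1 (1.03 ± 0.14), and DDI2, the protease that activates NFE2L1, fell (-0.46 ± 0.16). Of 12 activators, inhibitors and partners 3 rose, near the 23.5% of all genes that were higher. They were USP14 (1.19 ± 0.14), PSME1, an activator subunit (0.53 ± 0.15), and TXNL1, a thioredoxin on the proteasome (0.35 ± 0.12). SEM1 fell (-0.66 ± 0.17). The median was -0.46 for assembly chaperones, 0.66 for ubiquitin genes, 1.04 for transcription and processing and 0.31 for activators and partners.

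Markers of the cells shifted between the same libraries. The sums below weigh most on KRT8, KRT18 and KRT19, with medians of 1908, 998 and 910 CPM over the 24 libraries. EPCAM came next, with a median of 134.5 CPM. In the RPAP3 line the 13 epithelial markers summed to 5045 and 4209 CPM on uncoupled beads after puromycin, against 1891 and 1580 CPM untreated. On GFP beads they summed to 4212 and 5482 CPM after puromycin, against 1576 and 1839 CPM untreated. Of 11 tested markers 7 were higher and 1 lower on uncoupled beads, where 23.5% of all genes were higher and 19.4% lower. Cytosolic ribosomal protein mRNAs had 0 of 78 higher and 37 lower there, with a median of -0.36. In the RUVBL1 line the epithelial sum was 3636 to 5551 CPM over all 16 libraries. The part of this shift in the members' differences was not tested.

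**Figure D3:**
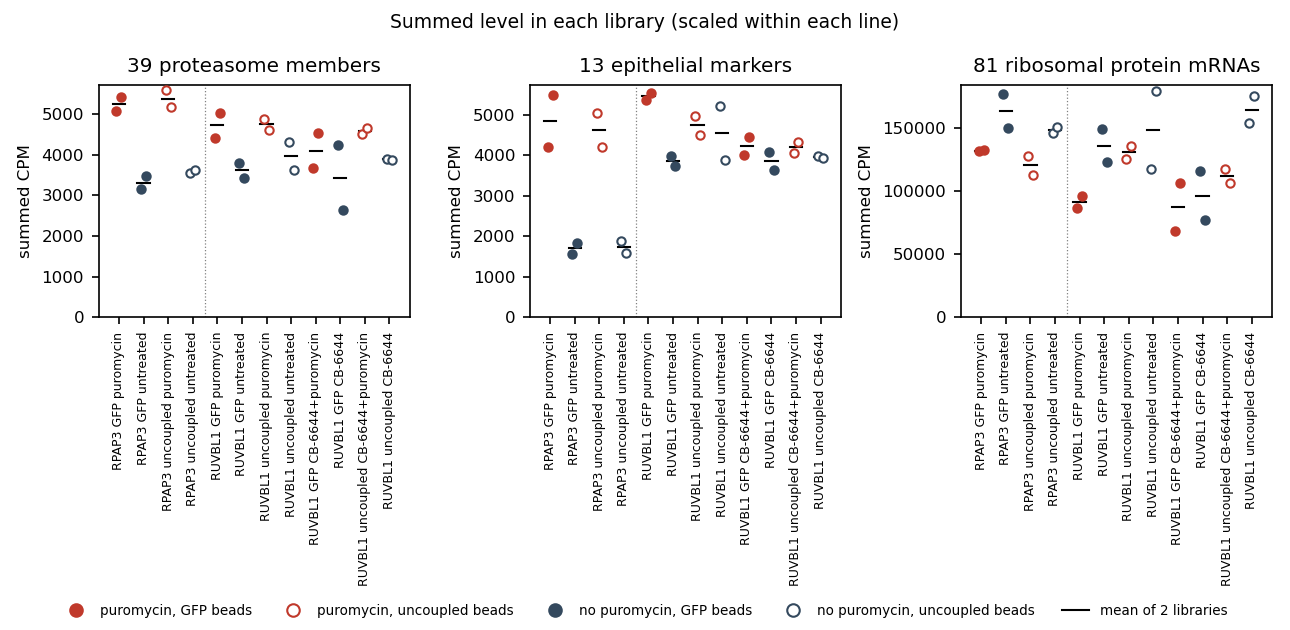
Summed level per library of the 39 members, of 13 epithelial markers and of 81 ribosomal protein mRNAs, in CPM scaled within each line, with puromycin groups left of their counterparts without it. The members summed to 5074 to 5581 CPM in the RPAP3 puromycin libraries and to 3150 to 3630 CPM in the RPAP3 untreated libraries. The epithelial sum, to which keratins add most, split the same 8 libraries.

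In the RUVBL1 line 0 members were called for puromycin on uncoupled beads, as were 0% of all genes in edgeR, with 5 members and 1464 genes at an unadjusted p under 0.05. DESeq2 called 0 members. The members' median was 0.31, where that of all genes was -0.05, and 30 of 37 members lay above 0. The median standard error of the members was 0.25, against 0.131 on uncoupled beads of the RPAP3 line. The smallest p belonged to PSMD12 at 0.84 ± 0.26 (edgeR adjusted p = 0.481), PSMC6, a base ATPase, at 0.57 ± 0.21 (0.496) and PSMB3 at 0.63 ± 0.26 (0.504). PSMD1 had 153 and 134 CPM on uncoupled beads after puromycin, against 154 and 84.6 CPM untreated. Its groups overlapped, and the lower untreated library is one that stands apart.

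On GFP beads of the RUVBL1 line, compared after the values had been seen, 5 members were higher and 1 lower, where 4.09% of all genes were higher and 0.951% lower. The higher ones were PSMD2 (1.38 ± 0.30), PSMD1 (1.12 ± 0.27), PSMD13 (1.08 ± 0.24), PSMD3 (0.86 ± 0.20) and the chaperone PSMD5 (0.85 ± 0.22). PSMD1 had 222 and 246 CPM on GFP beads after puromycin, against 124 and 91.2 CPM untreated, with no overlap. PSMB10 was the lower one, with 12.6 and 15.5 CPM after puromycin against 31.9 and 25.7 CPM untreated (-1.04 ± 0.24, edgeR adjusted p = 0.0108). The count of higher members was 0 without untreated replicate 2 or puromycin replicate 2, 1 without untreated replicate 1, and 13 without the 3 libraries that stand apart. PSMB10 lost its call without untreated replicate 1 or either puromycin replicate. In the same libraries the epithelial markers summed to 5377 and 5551 CPM after puromycin, against 3984 and 3731 CPM untreated, and ribosomal protein mRNAs to 86990 and 96410 CPM after puromycin, against 149200 and 122700 CPM untreated. The part of these shifts in the members' differences was not tested. Shares of all genes called when libraries were left out are not given here, so those counts are not set against a background.

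**Figure D4:**
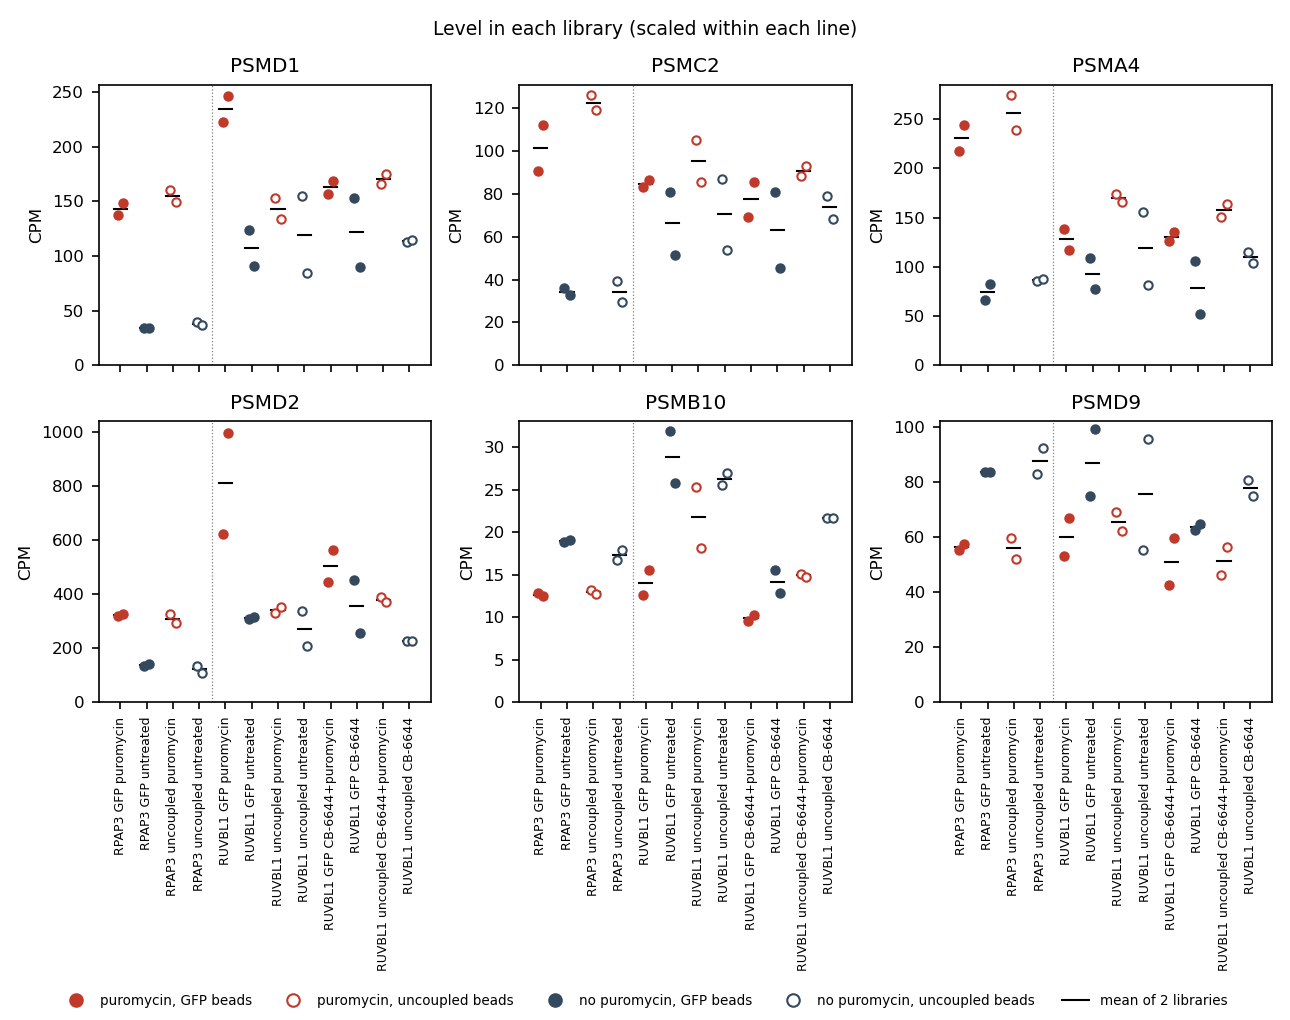
Level in CPM of 6 members in each of the 24 libraries (dots; bars are means of 2), RPAP3 line left of the dotted line, puromycin groups left of their counterparts without it. PSMD1, PSMC2 and PSMA4 separate puromycin from untreated libraries in the RPAP3 line on both bead types, PSMD2 is highest on RUVBL1 GFP beads after puromycin at 625 and 997 CPM, and PSMB10 and PSMD9 are lower after puromycin in the RPAP3 line.

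With CB-6644 present, puromycin gave 0 called members on GFP beads, against 0.0939% of all genes, and 0 on uncoupled beads, against 0% of all genes in edgeR (1422 genes at an unadjusted p under 0.05). At that unadjusted p there were 8 members on GFP beads, where 1237 of 15976 genes were, and 12 on uncoupled beads. DESeq2 called 0 members on either. These 2 comparisons were added after the values had been seen. PSMD5 had 0.73 ± 0.22 on GFP beads and 0.74 ± 0.22 on uncoupled beads, and PSMC6 had 0.64 ± 0.21 on GFP beads and 0.63 ± 0.21 on uncoupled beads. PSMD13 had 0.64 ± 0.24 on GFP beads, and PSMB8 had -3.02 ± 1.02 on uncoupled beads on few reads. On GFP beads PSMC6 had 0.81 and PSMD5 0.545 without CB-6644 replicate 1, and 0.485 and 0.93 without replicate 2. Calls of members changed on GFP beads without replicate 1, and on uncoupled beads without the 3 libraries that stand apart. Shares of all genes called in those fits are not given here.

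CB-6644 alone on uncoupled beads gave 0 called members against 0% of all genes in edgeR, with 860 genes and 0 members at an unadjusted p under 0.05 and 0 members in DESeq2. PSMD8 (0.54 ± 0.34), PSMD3 (-0.29 ± 0.20) and PSMB5 (-0.29 ± 0.23) had the smallest p there.

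The puromycin effect on uncoupled beads was then compared between the lines, in a test chosen after the values had been seen. RPAP3 minus RUVBL1 was called higher for 3 members, where 2.67% of all genes were. They were PSMD1 (1.65 ± 0.33, edgeR adjusted p = 0.00501), PSMC2 (1.28 ± 0.35, 0.0377) and PSMD3 (0.93 ± 0.25, 0.0365). With no low-count filter PSMD3 had 0.92 and lost its call (adjusted p = 0.0718). For the counts that follow, with libraries left out, shares of all genes are not given here. The count was 0 without RUVBL1 uncoupled untreated replicate 1, where PSMD1 had 1.13 ± 0.31 (adjusted p = 0.0915), and 8 without replicate 2. It was 2 without RPAP3 uncoupled untreated replicate A, and 1 without replicate B of that group or any 1 of the 4 puromycin libraries.

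Levels were also set on a scale shared by both lines. On uncoupled beads without CB-6644, as in this test, PSMD1 had 164 and 156 CPM after puromycin in the RPAP3 line. Untreated it had 43.6 and 40.2 CPM there. In the RUVBL1 line it had 148 and 131 CPM after puromycin, against 149 and 80.6 CPM untreated. The ranges that follow pool both bead types and, in the RUVBL1 line, libraries with CB-6644. PSMD1 had 140.5 to 164 CPM (median 153) in the 4 RPAP3 puromycin libraries and 36.9 to 43.6 CPM (median 38.6) in the 4 RPAP3 untreated libraries. In the RUVBL1 line it had 131 to 239 CPM (median 164) in the 8 libraries with puromycin and 80.6 to 149.7 CPM (median 109) in the 8 without. The RPAP3 untreated libraries were thus the low ones for PSMD1.

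PSMC2, PSMD1, PSMD2 and PSMD3 were lower in all 4 RPAP3 untreated libraries than in any of the 16 RUVBL1 libraries, and PSMA2, PSMA6, PSMB2 and PSMB9 were higher. Of all genes tested, 8.98% were below and 12.3% above in the same way, so 4 of 37 members each way is near the background. In the 4 RPAP3 puromycin libraries 20 of 37 members were above all 16 RUVBL1 libraries and 0 below, where 13.2% of all genes were above and 9.03% below. The tagged line and the set of libraries in which it was prepared cannot be told apart.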

How the data were processed

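RNA from 24 libraries of 12 groups was counted per gene. The deposited values are raw counts per gene. Per the submitters' processing notes, the authors made reads with bcl2fastq 2.20.0.422, worked on hg38, and named TopHat2 2.1.1 and featureCounts 2.0.3 beside quality tools. Strand and multi-mapping settings and the annotation are not given in the sources used here. Groups came from the sample labels.

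Genes were filtered (edgeR filterByExpr, minimum count 10 and total 15) and tested with edgeR 4.0.16 (TMM factors, glmQLFit and glmQLFTest, Benjamini-Hochberg adjustment over all tested genes) in R 4.3.3. The RUVBL1 line (16 libraries, 15976 genes) and the RPAP3 line (8 libraries, 15202 genes) were fitted apart, and differences between lines in a fit of all 24 libraries (16695 genes). DESeq2 1.42.0, other scaling factors, no filter, a replicate block and each library left out were alternatives. CPM is not corrected for gene length, so levels of different genes were not compared. The low-count filter leaves out PSMA8 and PSMB11.

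Members and gene lists were chosen with earlier results of these data known. Named members were those called, or the 10 with the smallest p where more were called, completed to 3 by the smallest p, plus the members with the most and the fewest counts. Others named for their role were chosen after their values were seen. Some genes of the ubiquitin list are counted but not reported here by name. Same-numbered libraries were not treated as paired in the main fits. Over 28 pairs of groups in the RUVBL1 line their deviations correlated at -0.412 to 0.27 (4 above 0.1). Over 6 pairs in the RPAP3 line they correlated at -0.117 to 0.159 (2 above 0.1). These pairs of groups mix treatments and bead types, so they cannot decide whether both bead types of a treatment shared a lysate. Promoter windows are from RefSeq (GRCh38.p14).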

Additional observations from a re-analysis of the deposited data

Results flagged for a closer look

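PSMD2 stood out because its enrichment after puromycin differed between the baits, with RUVBL1 minus RPAP3 at 1.22 (log2). The puromycin effect on uncoupled beads differed between the lines for 3 members, with RPAP3 minus RUVBL1 at 1.65 for PSMD1, 1.28 for PSMC2 and 0.93 for PSMD3 (log2). Each passed edgeR's quasi-likelihood test of the difference itself. For the baits 1 of 37 members was called higher, 2.7%, where 3.98% of all genes were, so that count is not above the background. For the lines 3 of 37 were, 8.11%, where 2.67% of all genes were. With each of 8 libraries left out in turn, PSMD1 lost its call in 1 fit (without RUVBL1 uncoupled untreated replicate 1), PSMC2 in 6, and PSMD2 and PSMD3 in 7 each.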

How the results depend on the processing

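Of 884 values of named members under alternatives, 819 stayed on the same side of the threshold, 42 were no longer past it, 23 passed it newly, and 0 changed sign. Of 258 counts of called members under alternatives other than leaving out 1 library, 231 were within 1.5 times the reported count and 27 were not. Most reported counts were 0, and a 0 that stayed 0 is among the 231, so these totals say little about the other counts. With the replicate block, RUVBL1 enrichment after puromycin had 2 members higher and 1 lower in place of 1 and 0. The other 38 of 40 counts, most of them 0, stayed close. The same comparison had 2 and 1 with no filter, 3 and 4 in DESeq2, 3 and 3 in a fit of all 24 libraries, 5 lower with upper-quartile factors, and 4 and 12 without the 3 libraries that stand apart, which were chosen after seeing the data.

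Without those 3 libraries, members called lower in RUVBL1 enrichment in untreated cells came to 5, members called higher with CB-6644 to 1, and the changes in enrichment had 4 higher and 1 lower for puromycin and 3 higher and 1 lower for CB-6644. For puromycin in the RUVBL1 line they gave 13 higher and 3 lower on GFP beads, and under CB-6644 9 higher and 2 lower on uncoupled beads and 1 higher on GFP beads. No filter gave 1 lower in RUVBL1 enrichment with CB-6644. DESeq2 gave 1 higher for the RUVBL1 change with puromycin, where it called 159 of 15976 genes higher. It gave 6 higher for the difference between lines, where it called 1069 of 16695 genes higher. In the RPAP3 line the lower count for puromycin was 2 on uncoupled beads in the fit of all 24 libraries and 4 on GFP beads with upper-quartile factors. Apart from DESeq2, shares of all genes called under the alternatives of this section are not given here. The counts of members are thus not set against a background. The causes were not tested.

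With 1 library left out, the RUVBL1 enrichment counts were 0 to 1 higher after puromycin and 0 to 16 lower with CB-6644. The changes in enrichment were 0 to 4 lower with CB-6644 and 0 to 1 higher for puromycin under CB-6644, and the bait difference after puromycin was 0 to 1 higher. Puromycin counts were 2 to 4 lower on RPAP3 uncoupled beads, 0 to 5 higher and 0 to 1 lower on RUVBL1 GFP beads, and 0 to 13 higher there under CB-6644. The difference between lines was 0 to 8 higher and 0 to 1 lower. Where a group had 1 library left, its spread was taken from the other groups. Shares of all genes called with 1 library left out are not given here, so these counts are not set against a background. Depth limits PSMB8 most, with 718 counts over 24 libraries.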
